A study of Mus musculus with 16 samples.

Results

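The contacts described here are those of the Klf4 gene window, 16 kb of mm9 chromosome 4 that hold the midpoints of 3 HindIII fragments spanning 55539388 to 55555904. They were counted by 5C (chromosome conformation capture carbon copy), which ligates crosslinked HindIII fragments and amplifies chosen junctions with forward and reverse primers, so that a count is a read of 1 fragment joined to another. A forward-reverse primer pair was a member when the midpoint of at least 1 of its fragments lay in that window. This gave 371 primer pairs, of 15486 in the Klf4 locus and 91509 over all 7 loci in the untreated libraries, and 371 of 15500 in the siRNA libraries. Of these, 8 joined the Klf4 window to the 25 kb enhancer region, whose 5 fragments span 55470858 to 55494277 and which lies downstream of the gene because Klf4 is transcribed from the minus strand.

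Klf4 encodes a Krüppel-like zinc-finger transcription factor of the naive pluripotency network and is a reprogramming factor. In mouse embryonic stem (ES) cells, enhancers at a distance downstream of the gene are occupied by pluripotency factors. Such distal elements contact their promoter through chromatin looping, in which CTCF, a zinc-finger protein found at many loop anchors, and YY1, another zinc-finger DNA-binding protein, have been given roles. Klf4 is highly expressed in ES cells in 2i medium, and neural progenitor cells (NPCs) have left the pluripotent state. Expression was not analysed here.

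V6.5 ES cells (129SvJae x C57BL/6, male) were kept with LIF in serum-free 2i medium, which adds the kinase inhibitors CHIR99021 and PD0325901, or with LIF in serum medium. NPCs were taken from whole brains of 129SvJae x C57BL/6 Sox2-eGFP mice on postnatal day 1, grown as neurospheres and plated at 60000 cells per square cm. For the siRNA experiment, NPCs of the same kind were plated at 20000 cells per square cm and treated for 78 hours with 20 nM siRNA against YY1 or with control siRNA. Each of these 5 groups had 2 libraries, and CTCF was mapped by ChIP-seq with 1 library in each of the 3 untreated conditions. In comparisons of NPCs with ES cells, cell type, allele, origin and medium cannot be told apart, and YY1 depletion itself was not analysed here. Nothing in the labels ties the libraries of a group to separate cultures, and p-values therefore measure the spread between these libraries, which may be technical.

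Total counts were 11784821 to 26533530 in the untreated libraries and 4419309 to 12993781 in the siRNA libraries. The Klf4 window held 18115 and 21978 counts in 2i, 41744 and 41048 in serum, and 15690 and 15009 in NPCs. It held 30843 and 28374 with control siRNA and 20968 and 58892 with YY1 siRNA. As a share of the Klf4 locus this was 1.31% to 1.59% in ES cells and 0.799% to 0.931% in untreated NPCs. In the siRNA libraries, also of NPCs, it was 1.11% to 1.32%. Counts are PCR reads without molecular identifiers.

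The sequence upstream of the Klf4 start is shown because the gene end of every contact below is its window. The 250 bases before the annotated start are taken from RefSeq on another build than the files, GRCm38.p6 chr4:55532476-55532725, minus strand, with matches to CCCTC, a core of the CTCF motif, and to ATGGC, the reverse complement of the YY1 core GCCAT, in capitals.
Klf4: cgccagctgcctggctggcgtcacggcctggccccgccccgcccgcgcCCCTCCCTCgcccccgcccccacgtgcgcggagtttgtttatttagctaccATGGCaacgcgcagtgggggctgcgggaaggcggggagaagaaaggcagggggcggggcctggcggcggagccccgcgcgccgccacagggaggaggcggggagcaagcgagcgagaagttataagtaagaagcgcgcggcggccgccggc
CCCTC occurred 2 times, in overlap, and GCCAT once, on the reverse strand; both strands were searched. Of 32851 promoters of the same length, 60.55% held CCCTC and 32.89% held GCCAT on either strand, so these matches describe the sequence only. No annotation of mm9 was used here, so the start was not placed on a 5C fragment.

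Between the Klf4 window and its downstream enhancer region, contacts were most frequent in 2i, intermediate in serum and least frequent in NPCs. The 8 primer pairs held 2515 and 2622 counts in 2i, 2822 and 2578 in serum, and 498 and 434 in NPCs. As a share of all counts of the Klf4 window, this was 13.9% and 11.9% in 2i, 6.76% and 6.28% in serum, and 3.17% and 2.89% in NPCs. These shares need no scaling between libraries, and the 3 groups did not overlap. Such separation of 2 libraries from 2 was common in distance-corrected counts of 16 kb window pairs over all loci. It was found in 56.4% of pairs for NPCs against 2i, 64.5% for NPCs against serum and 63.3% for serum against 2i. Relative to the count that distance alone gave in the same library and locus, the enhancer sum was 4.76 and 3.76 times the trend in 2i, 2.10 and 1.82 times in serum, and 1.27 and 0.794 times in NPCs. The 2 NPC libraries thus lay on either side of the trend, whereas all 4 ES cell libraries lay above it. The trend is that of 16 kb window pairs, which in this locus held 8.31 primer pairs on average.

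**Figure D1:**
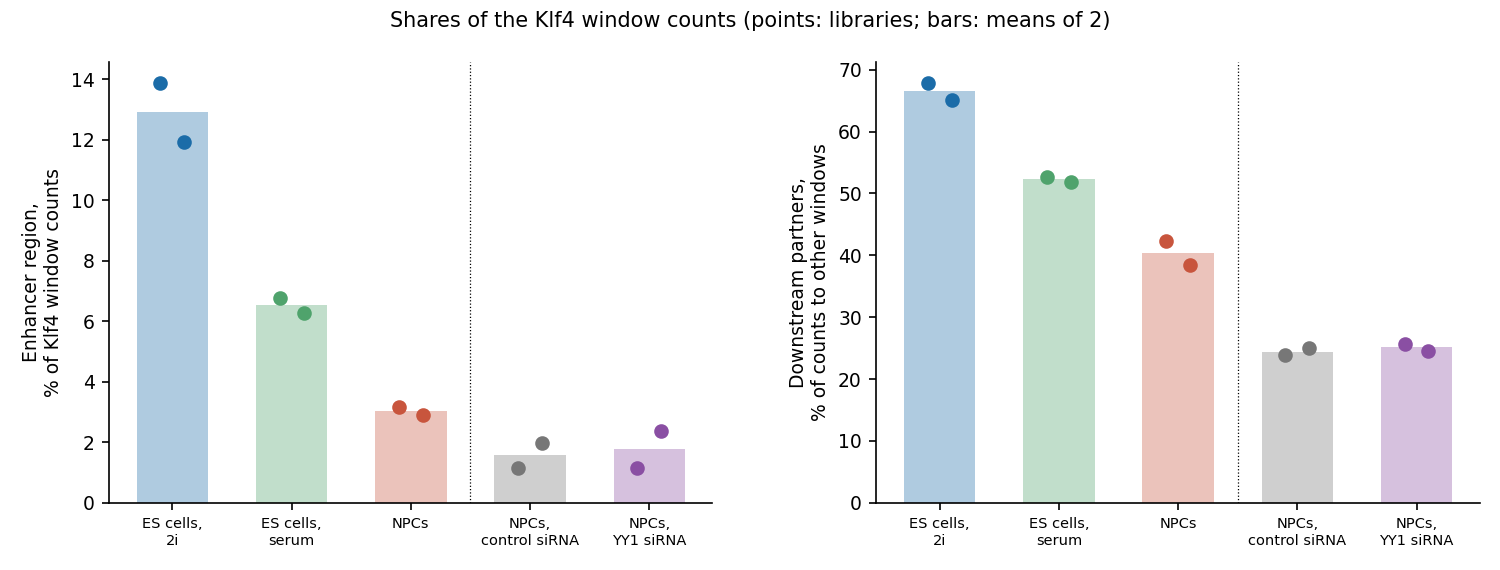
Share of Klf4 window counts that joined it to the enhancer region (left, percent) and share of its counts to other windows that went downstream (right, percent), by group. Points are libraries and bars are means of 2; the untreated groups fall stepwise from 2i to serum to NPCs without overlap, and both siRNA groups lie below the untreated NPCs.

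In the edgeR fit, the enhancer sum of NPCs was 4.23-fold lower than in 2i (log2 fold change -2.08, SE 0.22, adjusted p = 2.77e-05). In serum it was 2.25-fold lower than in 2i (-1.17, SE 0.21, edgeR adjusted p = 0.0018). NPCs were 1.88-fold lower than serum (-0.91, SE 0.22, edgeR adjusted p = 0.00615). The calls of both comparisons with serum depended on single libraries, while their direction did not. The edgeR adjusted p of serum against 2i became 0.0521 without serum replicate 2, that of NPCs against serum 0.0705 without serum replicate 1 and 0.0565 without NPC replicate 2, and in the last case the log2 fold change was -0.60.

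Within the enhancer region, most of these counts came from 1 fragment. Forward fragment 202, which runs from 55480573 to 55494277 (13705 bp), took 67.6% of the enhancer counts of the untreated libraries. Its pair with reverse fragment 223 of the Klf4 window (55544687 to 55548640) alone held 44.1%. That pair had 1333 and 1254 counts in 2i, 1144 and 973 in serum, and 167 and 184 in NPCs. The fit of single primer pairs gave it log2 fold changes of -2.70 (SE 0.31) for NPCs against 2i, -1.67 (SE 0.29) for serum against 2i and -1.03 (SE 0.29) for NPCs against serum, with edgeR adjusted p = 0.000168, 0.00235 and 0.0264.

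The same forward fragment gave 535 and 620 counts in 2i, 736 and 525 in serum, and 186 and 92 in NPCs with reverse fragment 222 (55539388 to 55544686). Here NPCs against 2i passed (-1.77, SE 0.41, edgeR adjusted p = 0.0232), whereas serum against 2i had -1.22 (SE 0.40, adjusted p = 0.0616) and NPCs against serum -0.55 (SE 0.40, adjusted p = 0.389). In this pair the raw counts of 2i and serum overlapped, but the serum libraries were deeper.

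Forward fragment 195 (55470858 to 55472385), at the far end of the enhancer region, gave 209 and 292 counts with reverse fragment 223 in 2i, 271 and 291 in serum, and 39 and 62 in NPCs. Its log2 fold change was -2.08 (SE 0.33) in NPCs against 2i and -1.17 (SE 0.30) in serum against 2i, with edgeR adjusted p = 0.00191 and 0.0235. In NPCs against serum it was -0.91 (SE 0.32, adjusted p = 0.0679). The third fragment of the Klf4 window, forward fragment 226 (55548698 to 55555904), had 135 and 135 counts in 2i with reverse fragment 198 (55477191 to 55478662), 201 and 284 in serum, and 19 and 22 in NPCs. It had a log2 fold change of -2.50 (SE 0.41) in NPCs against 2i and -1.96 (SE 0.40) in NPCs against serum (edgeR adjusted p = 0.00244 and 0.0042), while serum against 2i had -0.54 (SE 0.35, adjusted p = 0.368).

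Of the 8 primer pairs, 7 had enough counts to be tested, and all 7 had lower fitted values in NPCs than in either ES cell condition. Those that passed numbered 5 against 2i and 3 against serum, and 2 passed in serum against 2i. Over the primer pairs of all loci, 4.21%, 15.1% and 10.3% passed in the same comparisons. Without the pair of fragments 202 and 223 the enhancer sum kept its direction, with log2 fold changes of -1.72, -0.84 and -0.88 for NPCs against 2i, NPCs against serum and serum against 2i (edgeR adjusted p = 0.000244, 0.016 and 0.0157).

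The 3 fragments of the Klf4 window differed in how much of their contact went to the enhancer region. In 2i it was 18.1% and 16.2% of the counts of reverse fragment 222 and 20.9% and 17.7% of those of reverse fragment 223, but 3.66% and 3.11% of those of forward fragment 226. In serum these shares were 9.08% and 8.08%, 8.495% and 7.75%, and 2.84% and 3.47%. In NPCs they were 6.03% and 4.11%, 4.18% and 4.97%, and 0.846% and 0.770%. The share was thus lower at forward fragment 226 than at the other fragments in all 6 libraries. Forward and reverse fragments pair with different partners, so the 3 shares are over different sets of fragments.

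Read over all partner windows, the profile of Klf4 tilted from the downstream side to the upstream side between 2i and NPCs. In NPCs against 2i, 27 of the 60 window pairs of the Klf4 window passed edgeR's test, which is 45%, against a background of 17% of the window pairs of all loci and 17.9% of those of the Klf4 locus. All 12 that fell were among the 39 downstream partners, and all 15 that rose were among the 21 upstream partners. Over all loci 8.18% of pairs rose and 8.81% fell. The median log2 fold change was -0.56 downstream and 0.82 upstream, beside 0.02 over all window pairs. Of the 61 windows of the Klf4 locus, 1 had a larger share of its pairs changed than the Klf4 window, and the median window had 16.7%.

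This split by side was the same under plain TMM scaling, with 15 falls downstream and 13 rises upstream and no call in the opposite direction on either side. The number of calls depended on the libraries. Without 2i replicate 1 or 2i replicate 2, 16 and 15 pairs passed. Without NPC replicate 1 there were 16 falls downstream and 5 rises upstream, and without NPC replicate 2 there were 8 falls and 13 rises on those sides, with 2 rises downstream. Single primer pairs gave 23 falls and 4 rises, so at that resolution most calls were falls.

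**Figure D2:**
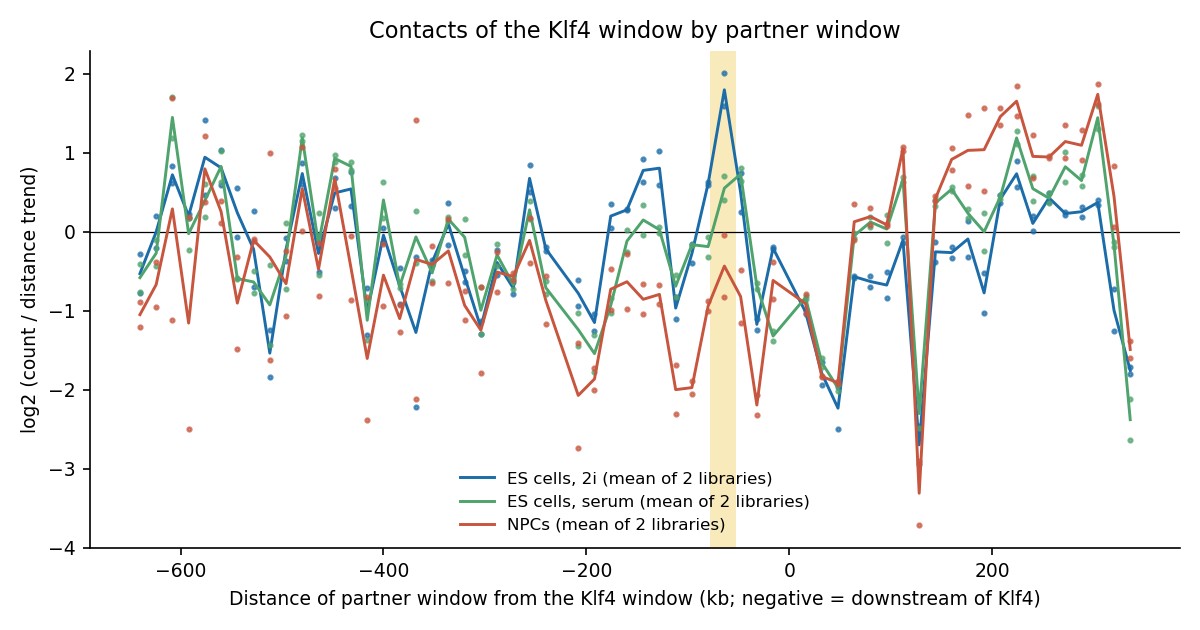
Contacts of the Klf4 window with each 16 kb partner window, as the log2 of the count over the distance trend of the same library, by distance from the Klf4 window (kb); the shaded band is the enhancer region. Points are libraries and lines are means of 2. The 2i line peaks in the band, and the NPC line lies above the others over most upstream windows beyond 48 kb.

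The raw shares gave the same order. Of the counts of the Klf4 window to other windows, 67.9% and 65.0% went downstream in 2i, 52.7% and 51.9% in serum, and 42.3% and 38.5% in NPCs. Counted only from 3 windows away, these were 69.4% and 65.8%, 53.3% and 52.3%, and 36.6% and 32.6%. No library of one group reached into the range of another by either count, a separation that was common among window pairs of all loci, as given above. With 2 libraries against 2, an exact permutation test cannot go below a two-sided p of 0.33, so no test of these shares is given.

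The largest fall in NPCs against 2i was at the window from 55475979 to 55491978, 64 kb downstream, which lies inside the enhancer region. It had 2091 and 2069 counts in 2i, 2165 and 1840 in serum, and 375 and 303 in NPCs. The log2 fold change was -2.23 (SE 0.25, edgeR adjusted p = 3.65e-05), a 4.69-fold lower contact. Among the 56 pairs of the Klf4 locus at this distance, 1 fell further. Among the 56 partners at least 48 kb away, this window ranked 1 in contact over the trend in both 2i libraries, 10 and 15 in serum, and 27 and 32 in NPCs. Over all its partners in the locus, its mean log2 contact over the trend was 1.08 and 0.79 in 2i. That mean was 0.17 and 0.05 in serum and -0.10 and -0.12 in NPCs, so the fall was not confined to the Klf4 window.

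The neighbouring windows that touch the enhancer region also fell. The window 80 kb downstream, starting at 55459979, had 691 and 895 counts in 2i, 920 and 1163 in serum, and 176 and 223 in NPCs, and fell by 1.58 (SE 0.20) in NPCs against 2i (edgeR adjusted p = 8.54e-05). The window 48 kb downstream, starting at 55491979, had 1153 and 1064 counts in 2i, 2970 and 2754 in serum, and 385 and 335 in NPCs. It fell by 1.33 (SE 0.23) in NPCs against 2i and by 1.49 (SE 0.23) in NPCs against serum (edgeR adjusted p = 0.00115 and 0.000266), but serum against 2i had 0.16 (SE 0.22, adjusted p = 0.648).

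Further downstream, the windows 96 kb, 128 kb and 144 kb away fell in NPCs against 2i by 1.73 (SE 0.22), 1.64 (SE 0.22) and 1.66 (SE 0.23). The edgeR adjusted p was 0.000123, 0.000154 and 0.000244. The window at 96 kb, starting at 55443979, had 359 and 405 counts in 2i, 916 and 972 in serum, and 69 and 105 in NPCs. It fell about as far against serum (-1.78, SE 0.22, edgeR adjusted p = 4.9e-05), whereas serum against 2i had 0.06. The falls of NPCs against 2i at all 6 of these downstream windows kept their calls under each scaling, tool and left-out library that was tried.

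Upstream, the largest rise in NPCs was at the window from 55731979 to 55747978, 192 kb away. It had 110 and 222 counts in 2i, 519 and 773 in serum, and 493 and 303 in NPCs, from libraries of different depth. Over the distance trend the contact rose by 1.85 on the log2 scale in NPCs against 2i (SE 0.32, 3.60-fold, edgeR adjusted p = 0.00122). The size rests on NPC replicate 1: without that library it was 1.20 (edgeR adjusted p = 0.0132), and without NPC replicate 2 it was 2.29. As a share of Klf4 window counts it was 0.607% and 1.01% in 2i, 1.24% and 1.88% in serum, and 3.14% and 2.02% in NPCs. NPCs did not overlap with either ES cell group, as was common over all loci (56.4% and 64.5% of window pairs against 2i and serum). The windows 160 kb and 304 kb upstream rose by 1.16 (SE 0.20) and 1.35 (SE 0.21), with edgeR adjusted p = 0.00132 and 0.000579. The window at 320 kb rose by 1.45 (SE 0.33, edgeR adjusted p = 0.007), a call that ended without 2i replicate 2 (0.0699) or NPC replicate 1 (0.0662).

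Against serum, fewer contacts of the Klf4 window differed in NPCs. Of the 60 window pairs 13 passed edgeR's test (21.7%), against 28.3% over all loci and 18% in the Klf4 locus, a share between these backgrounds. There were 9 falls, all downstream, and 4 rises, 3 upstream and 1 at the adjacent downstream window (0.75, SE 0.18, edgeR adjusted p = 0.00666). That adjacent window had 1915 and 1938 counts in serum and 2194 and 1906 in NPCs, from deeper serum libraries, and 2201 and 2646 in 2i. Over all loci, 14.6% rose and 13.6% fell.

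The largest fall against serum was the one 96 kb downstream, and the window 112 kb downstream fell by 1.28 (SE 0.28, edgeR adjusted p = 0.00337). It had 523 and 677 counts in serum and 80 and 69 in NPCs. The window 432 kb downstream had -1.22 (SE 0.32, edgeR adjusted p = 0.0108), which became 0.0702 without serum replicate 2 and 0.0895 without NPC replicate 2. The window 64 kb downstream, inside the enhancer region, fell by 0.92 (SE 0.24, edgeR adjusted p = 0.01), and its call ended without serum replicate 1 (0.106) or NPC replicate 2 (0.088).

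The rises against serum were at the windows 176 kb, 192 kb and 208 kb upstream, with log2 fold changes of 0.89 (SE 0.27), 1.14 (SE 0.31) and 1.05 (SE 0.19) and edgeR adjusted p of 0.0228, 0.0126 and 0.00115. The window at 208 kb, starting at 55747979, had 786 and 810 counts in serum and 458 and 502 in NPCs, and kept its call in every scaling, tool and left-out library tried, but its size was 0.57 under plain TMM scaling (edgeR adjusted p = 0.0416) and 0.59 with DESeq2 size factors. The other rises lost their calls. Under plain TMM scaling the edgeR adjusted p was 0.239 at 176 kb and 0.118 at 192 kb, with 1 distance trend over all loci 0.101 and 0.0589, without NPC replicate 1 0.337 and 0.228, and without serum replicate 1 0.0994 and 0.139. DESeq2 size factors gave adjusted p of 0.266 and 0.125, and without serum replicate 2 the edgeR adjusted p at 176 kb was 0.152. Plain TMM scaling gave 17 falls and 3 rises in place of 9 and 4. It moved the median of the upstream pairs from 0.41 to -0.01 and that of the downstream pairs from -0.37 to -0.83. Without serum replicate 1 and serum replicate 2, 7 and 8 pairs passed. Without NPC replicate 1 there were 16 falls and 1 rise, and without NPC replicate 2 there were 5 falls and 8 rises.

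**Figure D3:**
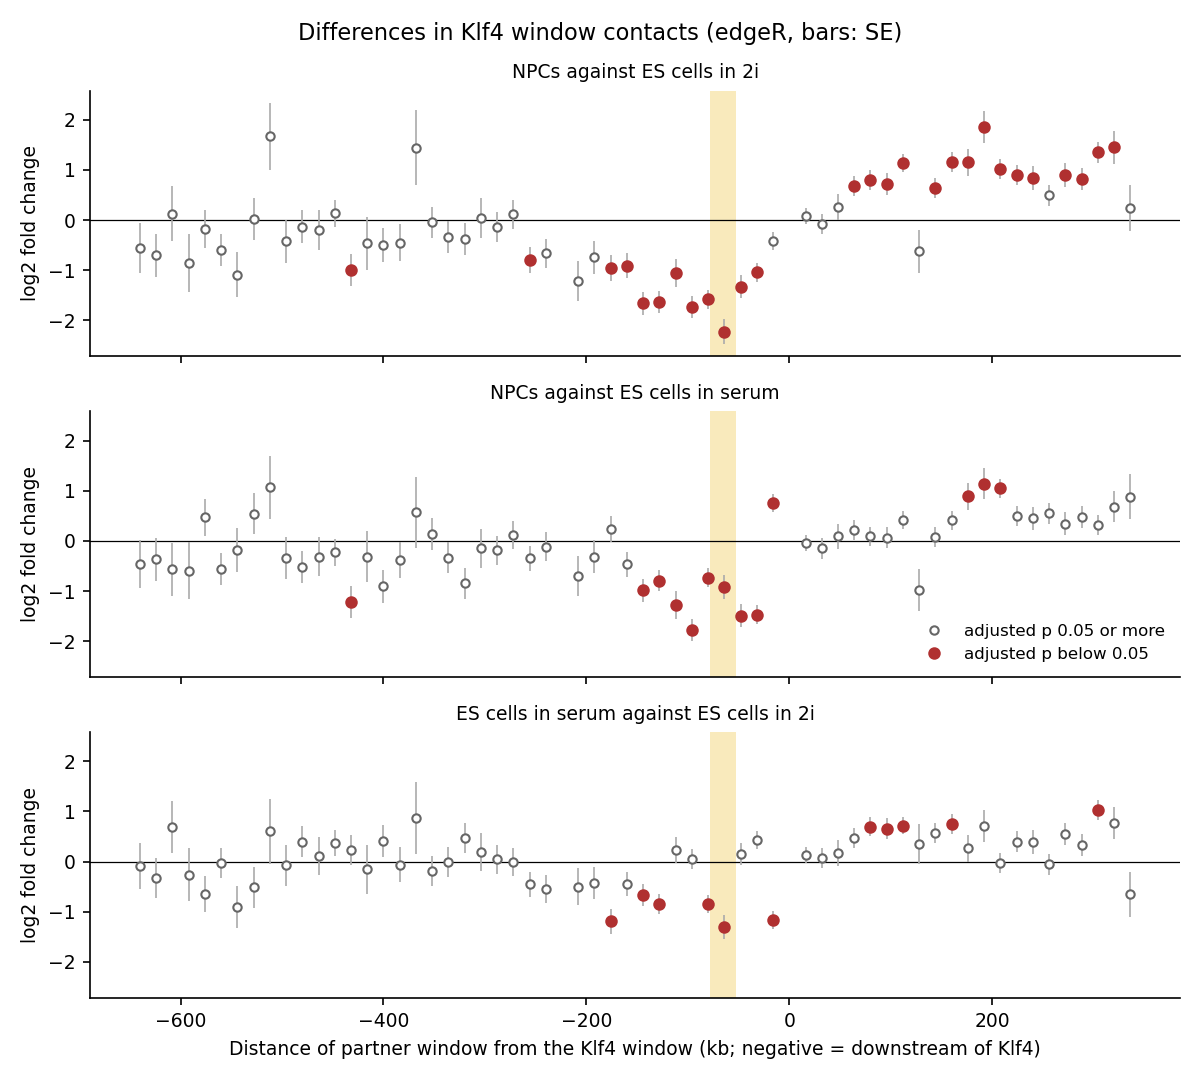
Log2 fold change of each Klf4 window contact by distance of the partner window (kb), in 3 panels for the 3 untreated comparisons. Bars are SE, filled points have an edgeR adjusted p below 0.05, and the shaded band is the enhancer region. In the top panel the filled points lie below 0 downstream and above 0 upstream.

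Between the ES cell conditions, the changed contacts of Klf4 showed the same sides. In serum against 2i 11 of 60 pairs passed edgeR's test (18.3%), against 20.6% over all loci and 20.7% in the Klf4 locus, so their number did not stand above the background. The 6 falls were all downstream and the 5 rises all upstream, where over all loci 11.3% of pairs fell and 9.34% rose. The comparisons of serum and of NPCs with 2i share the 2i libraries, so their values are given side by side and not as support for each other.

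The largest fall was again at the window 64 kb downstream, at -1.30 (SE 0.23, 2.47-fold lower, edgeR adjusted p = 0.00168). At 176 kb downstream the window starting at 55363979 had 253 and 439 counts in 2i and 371 and 347 in serum, and fell by 1.19 (SE 0.25, edgeR adjusted p = 0.00467). Both calls ended without serum replicate 2 (0.0516 and 0.0772). The windows 80 kb and 128 kb downstream fell by 0.85 (SE 0.19) and 0.85 (SE 0.21), with edgeR adjusted p of 0.00599 and 0.0105. Without serum replicate 1 neither passed (0.09 and 0.0739). The fall at 128 kb also lost its call under plain TMM scaling (-0.56, edgeR adjusted p = 0.0627), with DESeq2 size factors (-0.55, adjusted p = 0.0664), without 2i replicate 1 (0.123) and without serum replicate 2 (0.115).

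Of the rises, that at 304 kb upstream, starting at 55843979, was the largest, with 198 and 274 counts in 2i and 1149 and 1007 in serum. Its log2 fold change was 1.03 (SE 0.21, edgeR adjusted p = 0.00358), and it was not called without serum replicate 1 (0.0657). The windows 80 kb, 112 kb and 160 kb upstream rose by 0.70 (SE 0.19), 0.72 (SE 0.18) and 0.75 (SE 0.20), with edgeR adjusted p of 0.019, 0.0108 and 0.017. Each of these 3 lost its call without serum replicate 1, without serum replicate 2 and without 2i replicate 1 (edgeR adjusted p = 0.122, 0.0532 and 0.115 in the last case), and that at 112 kb also without 2i replicate 2 (0.0526). Plain TMM scaling gave 12 rises and 4 falls in place of 5 and 6. Leaving out 2i replicate 1, serum replicate 1 or serum replicate 2 left 5, 3 and 3 calls.

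The authors' deposited scores measure the same contacts per pair of 4 kb bins. A score is −10 times the log2 of the authors' p-value for the contact in that library, so a higher score is a contact less likely under their model. Between the 4 bins of the Klf4 window and the bins of the enhancer region, 27 of 28 bin pairs had scores in the untreated libraries. The median score was 29.4 and 28.5 in 2i, 12.7 and 6.90 in serum, and 0.838 and 0.492 in NPCs. The highest score was 53.6 and 46.0 in 2i, 41.2 and 30.3 in serum, and 9.13 and 5.75 in NPCs. The order of the groups was that of the enhancer shares and of the enhancer sum over the trend, with no overlap in the medians. The scores come from the same reads and are no further replicate.

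None of these enhancer bin pairs was among the looping pixels of the authors' deposited table, which sorts 288 pixels of the Klf4 locus into looping classes. Of the 288 in the authors' deposited table, 17 touched the Klf4 window. Of those, 13 in 3 clusters were classed as NPC only and 4 in 1 cluster as 2i only, and all lay upstream. Over the whole Klf4 locus, 33 of the 288 looping pixels were NPC only and 132 were 2i only. A further 4 pixels of the Klf4 window, 80 to 96 kb downstream, were classed as background. The classes were made from these scores, so the levels below describe them and test nothing.

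The NPC-only pixels 192 to 200 kb upstream had mean scores of 76.8 and 45.6 in NPCs, 4.47 and 12.7 in 2i, and 0.529 and 0.337 in serum. Those 204 to 216 kb upstream had 53.6 and 43.1 in NPCs, 5.28 and 7.77 in 2i, and 1.94 and 1.59 in serum. Both clusters fall on the windows 192 kb and 208 kb upstream, where the summed counts rose in NPCs against both ES cell groups. The third NPC-only cluster, 116 to 132 kb upstream, had 52.0 and 57.0 in NPCs, 8.12 and 15.5 in 2i, and 10.1 and 6.73 in serum. At the window 112 kb upstream, which holds most of this cluster, the counts rose against 2i (1.13, SE 0.18, edgeR adjusted p = 0.000601). Against serum the value there was 0.41 (SE 0.17, edgeR adjusted p = 0.0888).

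The 2i-only pixels, 132 to 140 kb upstream, had mean scores of 49.2 and 52.5 in 2i, 5.88 and 10.5 in serum, and 9.86 and 4.71 in NPCs. The summed counts did not show this difference, but they mix classes and cannot check it. The same 16 kb window also holds an NPC-only pixel, scored 56.2 and 71.7 in NPCs and 5.8 and 15.4 in 2i. The window there, starting at 55667979, had 59 and 57 counts in 2i, 152 and 209 in serum, and 31 and 23 in NPCs, and its log2 fold change in NPCs against 2i was -0.63 (SE 0.43, edgeR adjusted p = 0.359). It was the partner with the lowest contact over the trend in the means of 2i and of NPCs. This window also lay far below the trend over all its partners in the locus. That mean log2 value was -2.86 and -2.89 in 2i and -3.99 and -4.14 in NPCs, so the low contact was not particular to Klf4.

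**Figure D4:**
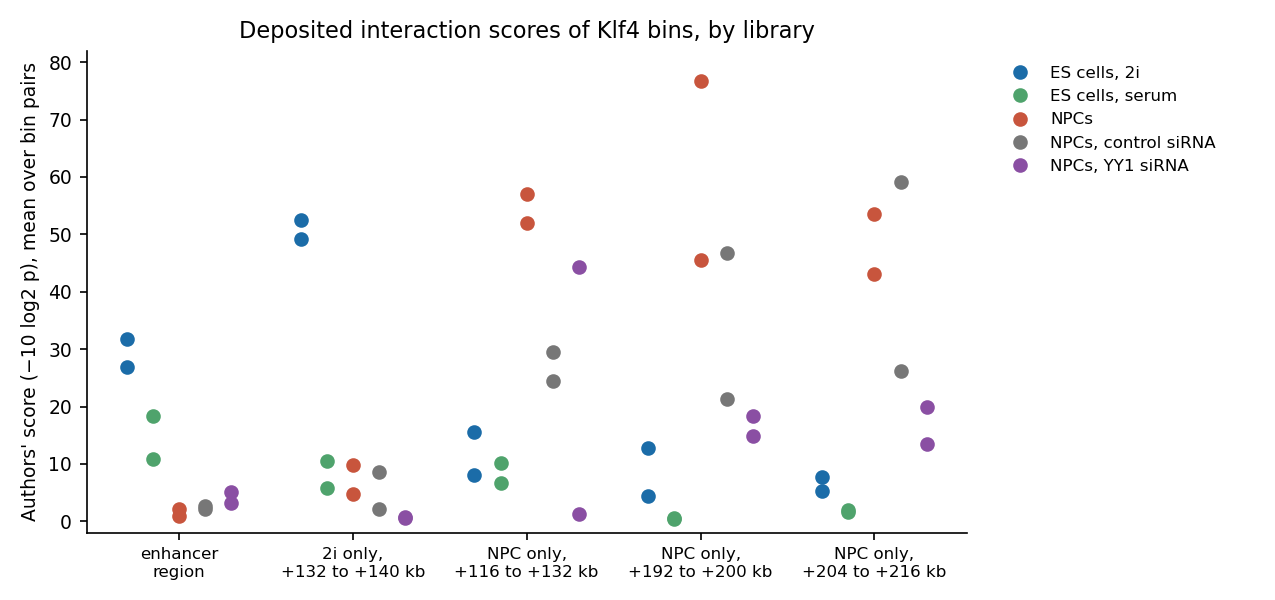
Authors' deposited interaction score (−10 log2 p), averaged over the bin pairs of each set, for the enhancer region and the 4 clusters of looping pixels that touch the Klf4 window. Each point is 1 library, coloured by group. The enhancer set is high in 2i and near 0 in NPCs, and the NPC-only sets are high in untreated NPCs.

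CTCF peaks, given by mm9 position and the authors' fold enrichment over background, differed between the lists at both ends of the enhancer contact. With 1 library per condition these lists have no replicate check. They hold 26 sites in the Klf4 locus, 25 with a peak in 2i, 22 in serum and 7 in NPCs, and 6 in all 3. The whole lists, as used here, hold 56138, 50185 and 28860 peaks, so the NPC list is 51.4% as long as the 2i list. In the other 6 loci there were 375 peaks in 2i, 342 in serum and 189 in NPCs. NPC peaks were thus 50.4% of the 2i number in those loci and 28% in the Klf4 locus, a difference that was not tested. Of the 26 sites, none lay upstream of the Klf4 window, the side on which contacts rose in NPCs against 2i. The lists were made from downsampled reads, per their names, and differ in length, so a peak missing from one may lie below its threshold.

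In the Klf4 window, the site from 55543078 to 55543514 had a peak in all 3 lists, with a fold enrichment of 29.2 in 2i, 21.6 in serum and 17.03 in NPCs. The site from 55544172 to 55544431 had 8.92 in 2i and 13.4 in serum and no peak in NPCs. Both lie on reverse fragment 222. A site from 55539380 to 55539535, just below the window edge, was in the NPC list only, at 15.1.

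Of the 3 sites in the enhancer region, that from 55493256 to 55493676 was in all lists, at 56.0 in 2i, 35.2 in serum and 28.9 in NPCs. The sites from 55472425 to 55472671 and from 55490750 to 55491090 had peaks in 2i (10.6 and 14.1) and serum (10.5 and 9.26) and none in NPCs. Forward fragment 202, which gave most of the enhancer counts, holds the sites at 55490750 and 55493256. Between the enhancer region and the Klf4 window, the site from 55527478 to 55527979 was in all lists, at 14.5, 29.6 and 28.8. The site with the highest 2i value at either end had a peak in all 3 lists.

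Partner windows that fell differed in their CTCF sites. The windows 80 kb, 128 kb, 144 kb and 176 kb downstream held sites with peaks in at least 1 ES cell list, and of these the site from 55463970 to 55464359, in the window 80 kb downstream, was also in the NPC list (26.9 in 2i, 20.9 in serum, 6.61 in NPCs). The windows 96 kb and 112 kb downstream held none in any list. The part of CTCF in these contacts was not tested. The window 432 kb downstream held a site from 55113811 to 55113997 in both ES cell lists (12.2 and 8.92) and not in NPCs.

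**Figure D5:**
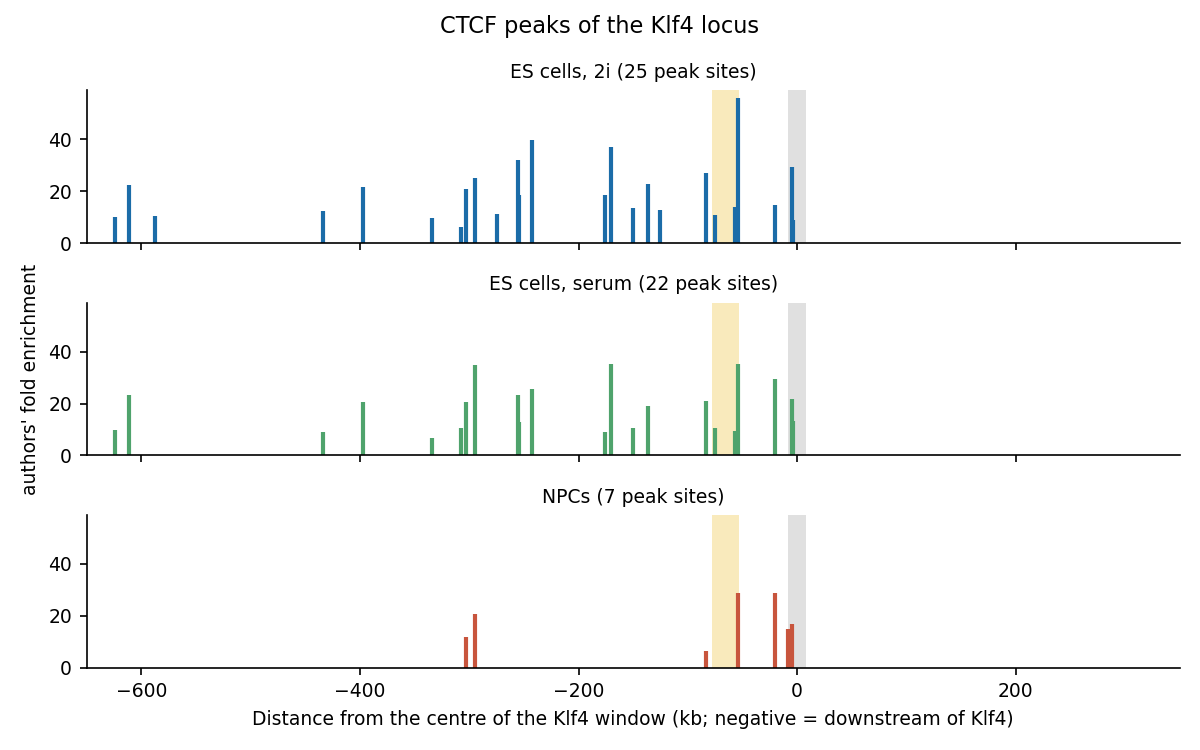
CTCF peak sites of the Klf4 locus in ES cells in 2i, ES cells in serum and NPCs, as the authors' fold enrichment by distance from the centre of the Klf4 window (kb). Grey marks the Klf4 window and yellow the enhancer region; each line is a site. The NPC panel has 7 sites against 25 in 2i, and no panel has a site upstream of the grey band.

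The siRNA comparison asks whether the contacts of Klf4 in NPCs differ when YY1 is targeted. The control libraries were grouped by their titles, although their growth text also speaks of YY1 siRNA. The siRNA libraries covered 2 loci, and the Klf4 locus held 1744 of the 3624 window pairs tested. None of the 59 window pairs of Klf4 passed edgeR's test, and none passed over both loci (0% of 3624 pairs). At an unadjusted edgeR p below 0.05 there were 2 pairs of Klf4 and 339 over both loci, and DESeq2 also called 0. The median log2 fold change was -0.06 downstream and -0.04 upstream. Of the counts to other windows, 25.7% and 24.5% went downstream with YY1 siRNA and 23.9% and 24.99% with control siRNA, so the ranges overlapped.

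The enhancer sum had 356 and 563 counts with control siRNA and 243 and 1400 with YY1 siRNA, which was 0.272 and 0.393 times the trend against 0.275 and 0.472 times. As a share of Klf4 window counts it was 1.15% and 1.98% with control siRNA and 1.16% and 2.38% with YY1 siRNA. The log2 fold change was 0.12 (SE 0.43, edgeR adjusted p = 0.955), and it became -0.37 without YY1 replicate 2 and -0.11 without control replicate 1. Without the pair of fragments 202 and 223, which had 2 and 615 counts with YY1 siRNA, it was 0.69 (SE 0.51, edgeR adjusted p = 0.748). Whether primers dropped out in YY1 replicate 1 was not tested. The SE of the whole enhancer sum, 0.43, compares with 0.21 to 0.22 in the untreated comparisons.

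Single primer pairs varied widely between these libraries. The pair of forward fragment 202 and reverse fragment 223 had 205 and 270 counts with control siRNA but 2 and 615 with YY1 siRNA. Forward fragment 202 and reverse fragment 222 had 41 and 36 counts with control siRNA and 50 and 317 with YY1 siRNA. Reverse fragment 223 with forward fragment 195 had 1 and 53 with control siRNA and 136 and 86 with YY1 siRNA, and forward fragment 226 with reverse fragment 198 had 46 and 137 against 0 and 100. None of the 6 tested enhancer pairs passed, where 0% of primer pairs passed over the 2 loci of the siRNA experiment.

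The NPC-only looping clusters were classed without the siRNA libraries. At 2 of 3, which lie side by side, both YY1 siRNA libraries had lower mean scores than both control libraries. No share of such cases over all scored bin pairs was computed, so this describes the 2 clusters only. By counts, which are another measure, the libraries of the siRNA groups did not overlap, in either direction, in 40.6% of all window pairs. At 192 to 200 kb upstream the mean score was 21.3 and 46.8 with control siRNA and 18.4 and 14.8 with YY1 siRNA. At 204 to 216 kb it was 59.1 and 26.2 against 19.9 and 13.5. At 116 to 132 kb it was 29.5 and 24.5 against 1.21 and 44.3, where the YY1 libraries lay on either side of the controls. With 2 libraries a group the smallest two-sided exact permutation p is 0.33. The counts gave 0.21 (SE 0.36, edgeR adjusted p = 0.908) at the window 192 kb upstream and -0.36 (SE 0.30, edgeR adjusted p = 0.771) at 208 kb.

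Both siRNA groups lay further from ES cells than the untreated NPCs, with 23.9% to 25.7% of counts downstream against 38.5% and 42.3%. Counted only from 3 windows away the gap was smaller, with 24.7% to 27.2% against 32.6% and 36.6%. Plating density, time on the plate and the 3C protocol differed between the experiments along with the siRNA, so these cannot be told apart, and the levels were not tested against each other.

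The windows most like Klf4 in their mean contact over the trend, across the 6 untreated libraries and among 56 windows at least 3 away, were those starting at 55107979, 55203979 and 54947979. Their Pearson r with Klf4 was 0.84, 0.72 and 0.60. The mean of Klf4 itself was -0.20 and -0.30 in 2i, -0.11 and -0.21 in serum, and -0.16 and -0.61 in NPCs on the log2 scale, so NPC replicate 2 stood lowest. All 3 windows lie 336 kb or more downstream. These values share libraries and depth and are a description.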

How the data were processed

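Per the labels' protocols, 5C libraries were made from HindIII 3C templates, and those of the siRNA experiment in situ. The authors deposited raw read counts per primer pair; the submitters' processing notes name Bowtie and mm9, without a version. Control siRNA libraries were grouped by title, since their growth text names YY1 siRNA. Forward-reverse counts were summed over pairs of 16 kb windows by fragment midpoint, leaving out pairs within a window. All 15190 testable window pairs of the untreated libraries, and 3624 of the siRNA libraries, were fitted in edgeR 4.0.16 (R 4.3.3, quasi-likelihood, filterByExpr) with group as the only term. Offsets came from a loess trend (span 0.5) per library and locus of log count plus 0.5 on log distance plus 16 kb, with TMM factors from the trend-corrected counts. Benjamini-Hochberg adjustment ran over all pairs, with a threshold of 0.05. The enhancer sum was added to the same fit as a row of its own. The steps were tested on simulated data.

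The authors' deposited interaction score equals −10 times log2 of their deposited p-value, within 0.0618 in every library. The deposited CTCF lists give, per peak, a fold enrichment (ratio over background) and a −log10 q by the authors, called with MACS2 per the submitters' processing notes. Peaks sharing at least 1 bp were joined into sites. A further 35 per-library columns were not used.

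Named windows were the 3 that touch the enhancer region and, per comparison, up to 4 rises and 4 falls past the threshold, at least 3 windows away and with separated libraries; named primer pairs were the 4 with most counts. Members and lists were chosen with earlier results of these data known. Replicate numbers did not pair the samples. Alternatives were plain TMM scaling, 1 distance trend, DESeq2 1.42.0, other filters, 8 kb and 32 kb windows, single primer pairs, a replicate block, leaving out each library and, for peaks, a −log10 q of at least 20 and a larger overlap. Shares counted only from 3 windows away were added after seeing the data. Python 3.11.15 and pandas 2.3.3 were used.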

Additional observations from a re-analysis of the deposited data

How the results depend on the processing

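The fall of the Klf4 to enhancer contact in NPCs against 2i passed edgeR's or DESeq2's test in every alternative tried. The counts of called Klf4 window pairs moved by over 1.5 times in the settings named next. The ranges given for left-out libraries also hold smaller moves. For NPCs against 2i there were 17 with 32 kb windows, in place of 27, and 15 to 23 when a library was left out. For NPCs against serum there were 20 with plain TMM scaling, 20 with DESeq2 size factors, 31 with 8 kb windows and 37 with single primer pairs, in place of 13, and 7 to 17 when a library was left out. For serum against 2i there were 21 with 8 kb windows and 21 with single primer pairs, in place of 11, and 3 to 13 when a library was left out. Smaller windows and single pairs test more rows. When a library was left out, the enhancer contact ranged from -1.33 to -1.0 in serum against 2i and from -1.29 to -0.60 in NPCs against serum, and lost its call in the cases given above. In YY1 siRNA against control siRNA, where no setting gave a call, it ranged from -0.37 to 0.49 when a library was left out, so its sign depends on single libraries, and was 0.69 without the primer pair of fragments 202 and 223. A lone library of a group was assumed to vary like the others. In other cases the cause was not tested.

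With the replicate number as a block, 28, 17, 12 and 0 pairs passed for NPCs against 2i, NPCs against serum, serum against 2i and the siRNA comparison, and the enhancer contact had -2.10, -0.93, -1.16 and 0.08; no call of the enhancer contact changed. Deviations of same-numbered libraries correlated at 0.0267, 0.088 and 0.0223 in the untreated groups and 0.0485 in the siRNA groups, so the numbers did not pair the samples. Both peak alternatives left 7 sites at the Klf4 window, the enhancer region and between them. The biological coefficient of variation, the spread between libraries beyond counting error, was 0.381 in the siRNA fit against 0.201 in the untreated fit.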

Other observations

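The window 304 kb upstream of Klf4, starting at 55843979, had the highest contact over the trend among partners at least 48 kb away in both NPC libraries and in 3 of the 4 siRNA libraries, and in serum replicate 1. In control siRNA replicate 1 the window 224 kb upstream ranked first, and it ranked second in the other siRNA libraries and in both NPC libraries. Neither window touches a looping pixel of the Klf4 window in the authors' deposited table, and neither holds a CTCF site in any list. The trend corrects for distance only, and both windows also lay above it over all their partners in the locus. That mean log2 value in NPCs was 0.96 and 0.88 at 304 kb, and 0.88 and 1.05 at 224 kb. The ranks are thus not a trait of the Klf4 window alone, and are descriptions of these libraries.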
